A study of Homo sapiens with 4 samples.

Results

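The imprinted miRNA cluster of human chromosome band 14q32 was examined in 4 lines of HepG2, an established human liver cancer line. Its members were taken by name from a list of 39 miRNAs, leaving out names that end in an asterisk (10 probes) and targets very rich in G and C (0 probes). All 39 names were found, and they gave 52 of the 1212 human miRNA probes on the arrays. HepG2-Twist1 carried pcDNA-Twist1, HepG2-Twist1/Bcl-2 carried that plasmid and pcDNA-Bcl-2, HepG2-Bcl-2 carried pcDNA-Bcl-2, and HepG2-vector, the control by its title, is listed with no construct. Twist1 is an EMT-inducing transcription factor, and Bcl-2 protects cells from apoptosis. The study's paper describes HepG2-Twist1 as stably expressing Twist1 and does not mention the lines with Bcl-2. Whether each line was a clone or a pool is not given in the sources used here. Each line gave 1 RNA sample. HepG2-Twist1 (Cy5) and HepG2-vector (Cy3) shared array 1, and HepG2-Twist1/Bcl-2 (Cy3) and HepG2-Bcl-2 (Cy5) shared array 2. The arrays held no probe for the Twist1 or Bcl-2 transcript, so the labels could not be checked on these data.

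The miRNAs of this cluster are cut from long noncoding transcripts that are read from the maternal chromosome, with MEG3 at the upstream end, while DLK1, RTL1 and DIO3 nearby are expressed from the paternal one. Its miRNAs are known for high levels in placenta, embryo and brain and for low levels in most adult tissues, adult liver among them. A raised level of many members together has been described in a subset of hepatocellular carcinomas. In mice that lack the miR-379 to miR-410 part, newborn metabolism and anxiety-related behaviour are altered.

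In the RefSeq annotation of GRCh38.p14 the 52 probes corresponded to 45 hairpin genes over 214 kb of chromosome 14. The upstream segment, from MIR770 to MIR370, spans 58.8 kb with 10 hairpins (12 probes). The downstream segment, from MIR379 to MIR656, spans 44.7 kb with 35 hairpins (40 probes), and 111 kb lie between the segments. The target sequences in the deposited scanner tables were identical to a RefSeq mature miRNA for 51 of the 52 probes.

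The 5 members that met the rule for naming are shown first, since the results turn on them. Capitals mark the seed, bases 2 to 8, which pairs with target mRNAs.
miR-494: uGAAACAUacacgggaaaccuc
miR-409-3p: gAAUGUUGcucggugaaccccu
miR-665: aCCAGGAGgcugaggccccu
miR-485-3p: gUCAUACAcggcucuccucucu
miR-134: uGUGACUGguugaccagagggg

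The hairpin of miR-494 lies at chr14:101029634-101029714, that of miR-409 at chr14:101065300-101065378, that of miR-665 at chr14:100875033-100875104, that of miR-485 at chr14:101055419-101055491 and that of miR-134 at chr14:101054687-101054759. No other human probe on the arrays had the seed of miR-494, miR-409-3p, miR-665 or miR-485-3p. The seed of miR-134 was shared with miR-3118, which is not a member. The target of miR-494 differed from every other target on the arrays by an edit distance of at least 8 bases, reached by 1 target.

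Members on either side of miR-494 and the miR-376 group show how far the members differ in sequence although they share a locus.
miR-329: aACACACCugguuaaccucuuu
miR-543: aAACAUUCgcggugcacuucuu
miR-376a: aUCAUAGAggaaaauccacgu
miR-376b: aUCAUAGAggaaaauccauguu
miR-376c: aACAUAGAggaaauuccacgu

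Among the members, miR-376a and miR-376b were the single pair with a common seed. The miR-376 miRNAs are known for A-to-I editing of their precursors in brain, which changes their targets. Because miR-376a and miR-376b differ in few bases, cross-hybridization between their probes cannot be told apart from their own signal.

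The members were dim in all 4 lines. The normalized intensity is the background-corrected spot intensity after loess within the array, in arbitrary units. The minimum of 32 is named in the study's methods for the authors' own normalized values, which were processed in another way. The counts at 32 here are therefore not the study's own, and counts in the authors' values are given below. No member reached 32 in HepG2-Twist1, against 1 of 52 (1.92%) in HepG2-vector. In HepG2-Twist1/Bcl-2 6 members (11.5%) reached it, against 8 (15.4%) in HepG2-Bcl-2. With cyclic loess over the 4 channels in place of loess within each array, 3 members reached 32 in HepG2-Twist1, against 5 in HepG2-vector, and 3 in HepG2-Twist1/Bcl-2, against 3 in HepG2-Bcl-2, so the lower counts of array 1 were not kept. With loess within each array, the share over all 1212 probes was 23.6% in HepG2-Twist1 against 23.3% in HepG2-vector, and 39.8% in HepG2-Twist1/Bcl-2 against 43.9% in HepG2-Bcl-2. In each line the members' share was thus below that of all probes at this setting, and the share of all probes with cyclic loess was not taken. Median levels were 20.1 for the members and 21.3 for all probes in HepG2-Twist1, and 18.6 and 21.2 in HepG2-vector. They were 22.5 for the members and 29.7 for all probes in HepG2-Twist1/Bcl-2, and 21.6 and 29.5 in HepG2-Bcl-2. At 100 or more, 1 member was left, miR-494 in HepG2-Twist1/Bcl-2, where 12.8% of all probes passed. In the other lines 0 members reached 100, against 11.9% of all probes in HepG2-Twist1, 11.9% in HepG2-vector and 13.6% in HepG2-Bcl-2. With 1 sample per line and 2 arrays, no test between lines was possible within an array, and the number of arrays limits the precision.

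**Figure D1:**
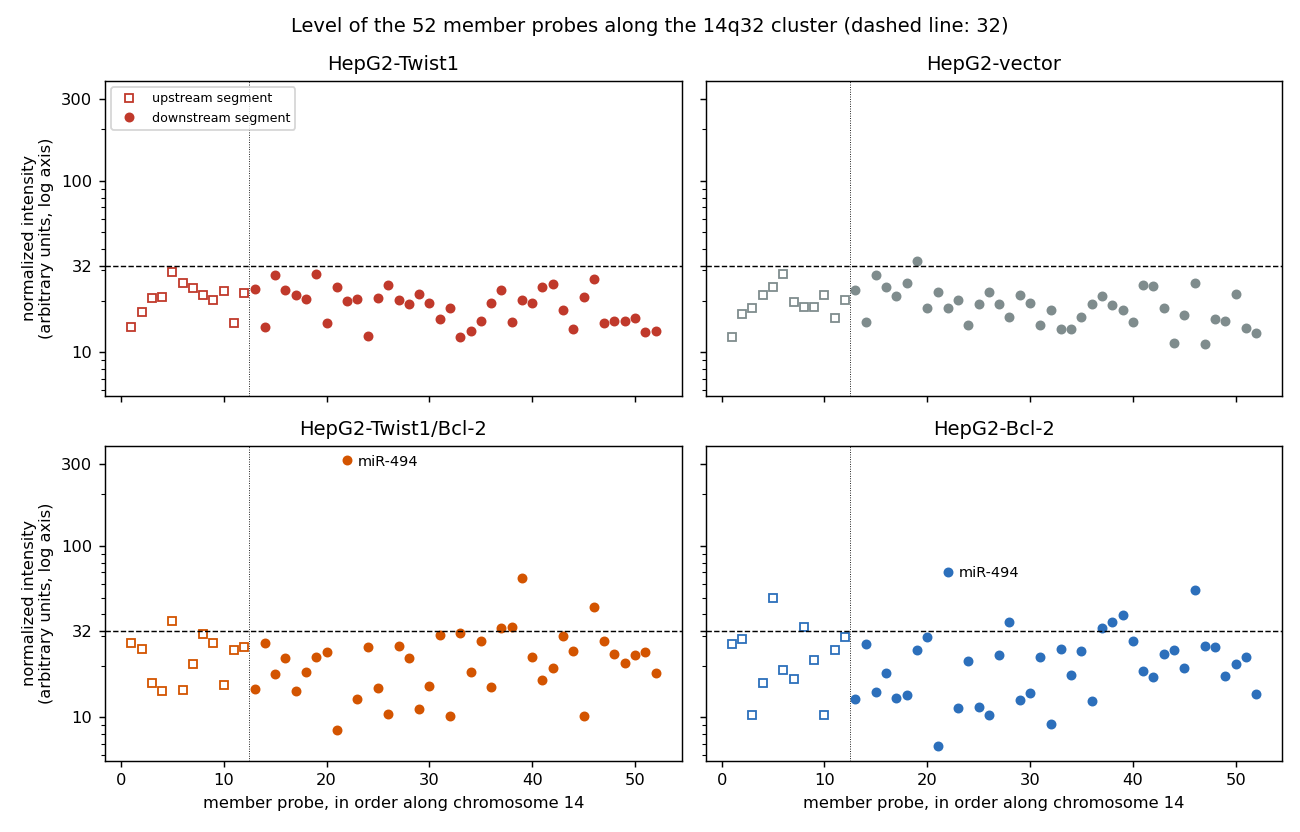
Normalized intensity (arbitrary units, log axis) of each of the 52 member probes in each line, in order along chromosome 14, with open squares for the upstream and filled circles for the downstream segment; each point is the mean of 3 spots of 1 sample and the dashed line marks 32. The points of HepG2-Twist1 all lie below 32 and 1 point of HepG2-vector lies above it, while miR-494 stands at 316 in HepG2-Twist1/Bcl-2 and at 70.6 in HepG2-Bcl-2.

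The same members were set against the signal of spots without a probe. Before any correction the 156 member spots had a median of 39.7 in HepG2-Twist1, against 39.1 for the 40 empty spots of that channel. In HepG2-vector the member spots had a median of 112 and the empty spots one of 110. On array 2 the member spots lay lower than the empty spots. Their median was 131 against 159 in HepG2-Twist1/Bcl-2 and 45.5 against 51.9 in HepG2-Bcl-2. Many empty spots lie in rows 100 to 119 and most member spots in the first 64 rows, and the medians were not adjusted for position. A level of 32 was not itself a sign of signal above empty spots on array 2. For miR-134, at 33.4 in HepG2-Bcl-2, the spots read 53.3, 49.9 and 51.1. On array 1 miR-494 was at 18.1 in HepG2-vector with spots of 112, 114 and 103. Above the highest empty spot of its channel stood 0 of 156 member spots in HepG2-Twist1 against 0 in HepG2-vector, and 5 in HepG2-Twist1/Bcl-2 against 4 in HepG2-Bcl-2. With 2 or more spots above the highest empty spot as the measure of signal, no member passed in HepG2-Twist1 or HepG2-vector, where 14.4% and 13.9% of all probes did. One member, miR-494, passed in HepG2-Twist1/Bcl-2 and also in the HepG2-Bcl-2 line, where 15.9% and 18.6% of all probes did. The highest empty spot of each channel was one labelled BKG0. On array 1 the spots named empty reached only 41.33 in HepG2-Twist1 and 114.5 in HepG2-vector. Members such as miR-323-5p had all 3 spots above these values. The lack of members with signal on array 1 thus depends on which empty spots set the cut. The share of all probes at the lower cut was not taken.

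In the authors' own normalized values, members at 32 or more numbered 0 in HepG2-Twist1 and 0 in HepG2-vector, where 20.9% and 21.4% of all probes reached 32. They numbered 2 in HepG2-Twist1/Bcl-2 (miR-494 and miR-485-3p) and 2 in HepG2-Bcl-2 (miR-494 and miR-409-3p), where 18.1% and 21% of all probes reached it. 

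**Figure D2:**
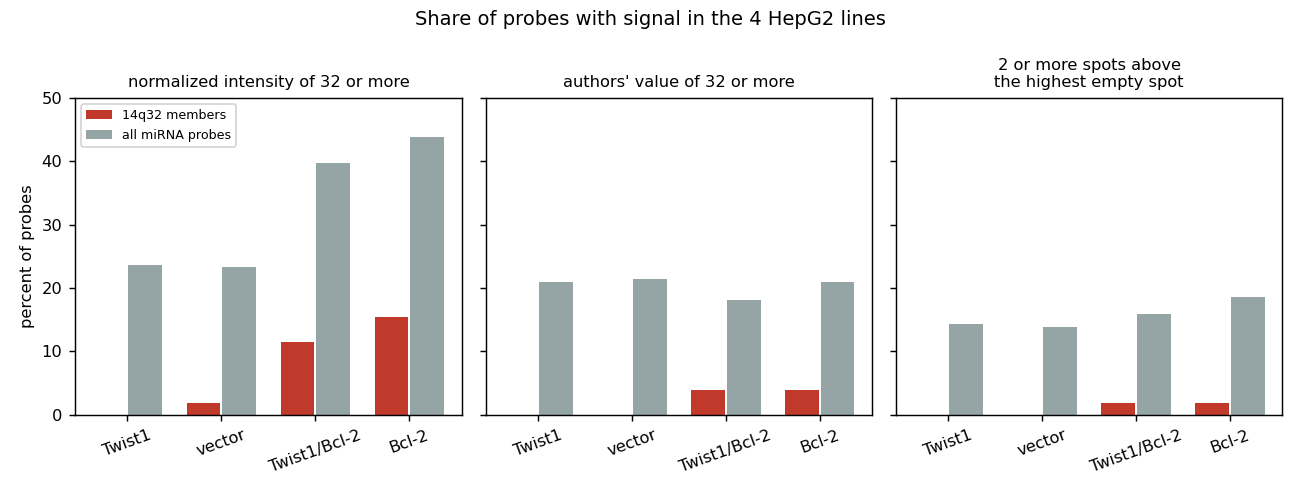
Percent of probes past a cut in each line for the 52 members (red) and for all 1212 human miRNA probes (grey), by 3 measures. These were a normalized intensity of 32 or more, an authors' value of 32 or more, and at least 2 of 3 spots above the highest empty spot. By each measure the red bar is lower than the grey bar in every line, and no red bar is drawn where the count is 0.

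The dim signal also varied with the place of a spot on the array, on which probes are laid out by name. Over the 153 member spots other than those of miR-494, Spearman's rho between row and spot intensity was -0.52 in HepG2-Twist1 and -0.48 in HepG2-vector. It had the opposite sign on array 2, at 0.63 in HepG2-Twist1/Bcl-2, against 0.62 in HepG2-Bcl-2. The 40 empty spots gave -0.40, -0.32, 0.52 and 0.36 in the same order of lines. They pool BKG0 spots, spread over the rows, with spots named empty, all in rows 100 to 119. Kind of spot and row are thus mixed in the values of the empty spots. In HepG2-Twist1/Bcl-2 the members' median was 124 over the first 64 rows and 138 over the later rows, and in HepG2-Bcl-2 it was 43.7 and 48.3. These values describe spots that share an array and are no test. The part of array position in the counts at 32 on array 2 was not tested.

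**Figure D3:**
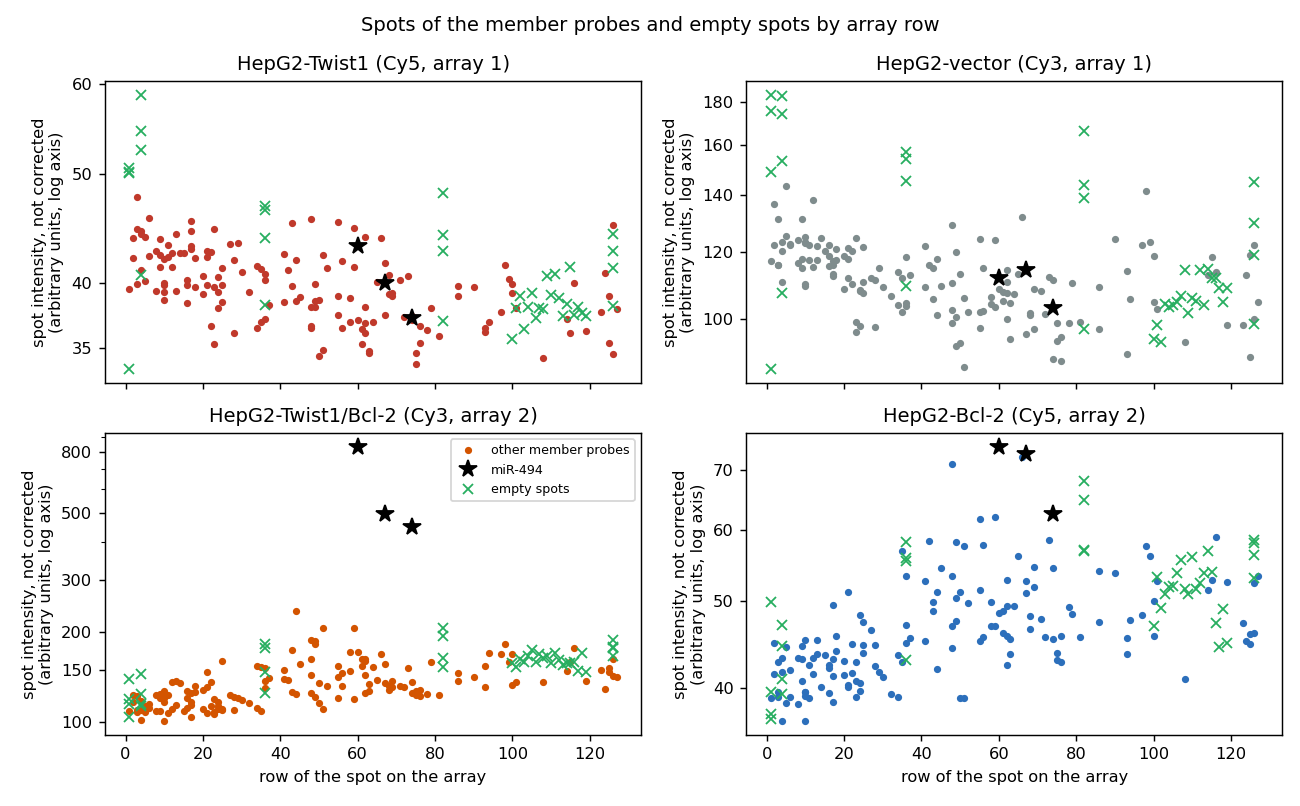
Spot intensity before correction (arbitrary units, log axis) by array row in each line, for the members other than miR-494 (dots), miR-494 (stars) and the 40 empty spots (crosses). Dots and crosses drift down with row on array 1 and up on array 2, and the 3 stars of HepG2-Twist1/Bcl-2, between 449 and 833, lie far above both.

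The upstream segment was considered first. miR-770-5p, whose hairpin lies within MEG3, had levels of 13.95 in HepG2-Twist1 against 12.3 in HepG2-vector, and 27.2 in HepG2-Twist1/Bcl-2 against 26.7 in HepG2-Bcl-2, all below 32. The hairpins of miR-431, miR-433, miR-127, miR-432 and miR-136 lie within RTL1, to which they are known to be antisense. In mice such antisense miRNAs guide cleavage of the RTL1 transcript, which placental growth depends on. Their 6 probes ranged from 14.7 to 25.3 in HepG2-Twist1 and from 15.8 to 28.7 in HepG2-vector. On array 2 they ranged from 14.4 to 30.4 in HepG2-Twist1/Bcl-2 and from 10.3 to 33.4 in HepG2-Bcl-2, where miR-127-3p alone passed 32. The other 5 upstream probes were those of miR-493, miR-337-3p, miR-337-5p, miR-665 and miR-370, of which miR-370 is known from liver cells as a regulator of the fatty acid oxidation enzyme CPT1A. Of these, miR-665 passed 32, in both lines of array 2.

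In the downstream segment, the 12 probes from miR-379 to miR-495 held miR-494. Without it the other 11 ranged from 12.4 to 28.7 in HepG2-Twist1 and from 14.5 to 34.3 in HepG2-vector. They ranged from 8.43 to 27.3 in HepG2-Twist1/Bcl-2 and from 6.75 to 29.3 in HepG2-Bcl-2, so none passed 32 on array 2. The value of 34.3 was that of miR-323-5p, singled out after its values were seen. This probe had levels of 28.7 in HepG2-Twist1 against 34.3 in HepG2-vector, and 22.6 in HepG2-Twist1/Bcl-2 against 24.7 in HepG2-Bcl-2. None of its spots on array 1 lay above the highest empty spot, a BKG0 spot. All 3 lay above the highest spot named empty, at 137, 131 and 141 against 114.5 in HepG2-vector. In HepG2-Twist1 they read 43.83, 43.74 and 41.44 against 41.33. The 3 probes of the miR-376 group stayed between 10.4 and 24.8 in all lines. Of the 23 probes from miR-381 to miR-656, 0 passed 32 in HepG2-Twist1 and 0 in HepG2-vector, against 4 in HepG2-Twist1/Bcl-2 (miR-134, miR-668, miR-485-3p and miR-409-3p) and, with the same names, 4 in HepG2-Bcl-2. The remaining member past 32, miR-654-5p, passed in HepG2-Bcl-2.

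Over the whole cluster, 9 of 52 members (miR-127-3p, miR-134, miR-323-5p, miR-409-3p, miR-485-3p, miR-494, miR-654-5p, miR-665 and miR-668) reached 32 in at least 1 line and 0 in all 4 lines. Among all probes the shares were 51.5% and 19.1%. Of the 9 miRNAs with a probe for each arm, 5 had 1 arm at 32 in some line, 4 had neither arm there, and 0 had both. The members' G and C content had a median of 47.6% and ranged from 23.8% to 72.7%, and the median over all probes was 50%. Spearman's rho between G and C content and level over the 52 members was 0.37 in HepG2-Twist1 against 0.33 in HepG2-vector, and 0.38 in HepG2-Twist1/Bcl-2 against 0.53 in HepG2-Bcl-2. The same values over all probes were 0.42, 0.41, 0.32 and 0.33. These are descriptions over probes of shared arrays, in which base composition and level moved together.

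HepG2-Twist1 was compared with HepG2-vector within array 1. Each line had 1 sample in 1 dye. Twist1, line and dye therefore cannot be told apart in the ratios of array 1, or in those of array 2 below. The call needed a log2 ratio of at least 1 in either direction (2-fold), the same sign in all 3 spots, and 1 or both lines at 32. The ratio is taken with an offset of 50 in both channels, which draws the ratios of dim miRNAs toward 0. Of the members, 1 was measured (miR-323-5p) and 0 were called in either direction for HepG2-Twist1 over HepG2-vector. Over all 304 measured miRNAs 0% were called higher and 1.64% lower. The log2 ratio of miR-323-5p was -0.10 ± 0.08 (SD of 3 spots, here and below). Over all 52 members, most of them below 32 in both lines, the log2 ratios had a median of 0.01 and ran from -0.13 to 0.10. Over all 1212 probes the median was -0.003 and the range -1.59 to 0.72. The 3 spots of a member had a median SD of 0.07, and 12 of 52 members had all 3 spots of one sign, against 428 of all 1212 probes.

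Within array 2, 8 members were measured, 1 was called higher in HepG2-Twist1/Bcl-2 than in HepG2-Bcl-2, and 0 were called lower. Of all 592 measured miRNAs, 3.55% were called higher and 4.9% lower. The called member was miR-494. The median log2 ratio was -0.05 over the 8 measured members and -0.04 over all measured miRNAs. The other 51 members ran from -0.25 to 0.37. The 3 spots of a member had a median SD of 0.11 there, and all 3 were of one sign for 21 of 52 members, against 463 of all 1212 probes.

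**Figure D4:**
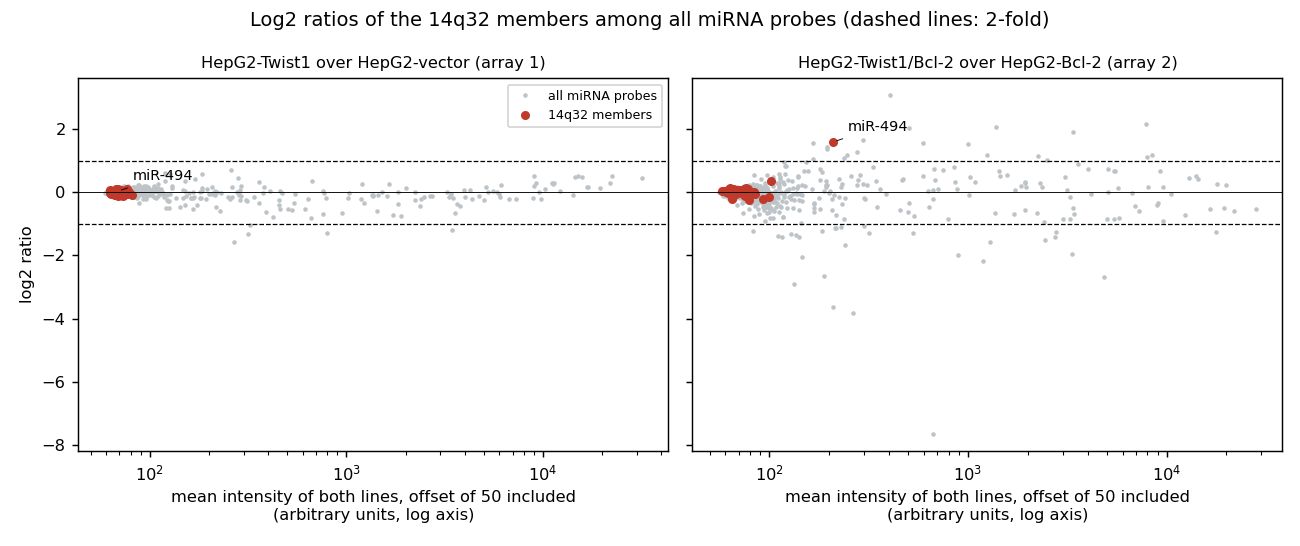
Log2 ratio on each array, with the Twist1-carrying line on top, against the geometric mean intensity of both lines with the offset of 50 included (log axis), for the 52 members (red) and all 1212 miRNA probes (grey). Red points lie close to 0 on both arrays, at the dim end, except miR-494 at 1.60 on array 2, above the dashed line of 2-fold.

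miR-494 has been described in liver cancer as acting on the tumour suppressor MCC. On array 2 its 3 spots read 833, 496 and 449 in HepG2-Twist1/Bcl-2, where the highest empty spot read 207, and 74.3, 72.8 and 62.5 in HepG2-Bcl-2, where the highest empty spot read 68.1. All 3 spots of HepG2-Twist1/Bcl-2 and 2 of 3 in HepG2-Bcl-2 were therefore above every empty spot of their channel. After normalization its level was 316 ± 144 in HepG2-Twist1/Bcl-2, against 70.6 ± 10.01 in HepG2-Bcl-2, a log2 ratio of 1.60 ± 0.43. Without the offset this was 4.47-fold, and the authors' values of 162 and 33.6 gave 4.82-fold. By log2 ratio it ranked 7 of 592 measured miRNAs. On array 1 the level of miR-494 was 19.9 ± 5.6 in HepG2-Twist1 and 18.1 ± 2.9 in HepG2-vector, with a log2 ratio of 0.04 ± 0.09. Its spots there read 43.15, 39.99 and 37.19 in HepG2-Twist1, and 112, 114 and 103 in HepG2-vector, all within the range of the empty spots. miR-494 was thus not told from empty spots on array 1, and its ratio there is no measure of a response to Twist1.

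The hairpins nearest to MIR494 are MIR329-2 at 2.45 kb and MIR543 at 2.27 kb. The probes of miR-758, miR-329, miR-543 and miR-495, the members next to miR-494 on either side, stayed between 6.75 and 29.3 in all lines. On array 2, miR-329 was at 8.43 in HepG2-Twist1/Bcl-2, against 6.75 in HepG2-Bcl-2, and miR-543 at 12.7 and 11.4. No signal above the highest empty spot, a BKG0 spot, was seen from these flanking members. The highest spot named empty in HepG2-vector was at 114.5. There miR-329 (115.69, 124.84 and 112.89) and miR-543 (124.64, 117.73 and 97.96) had spots above it, so this result depends on the cut. Levels of different probes also cannot be set against each other on this platform.

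**Figure D5:**
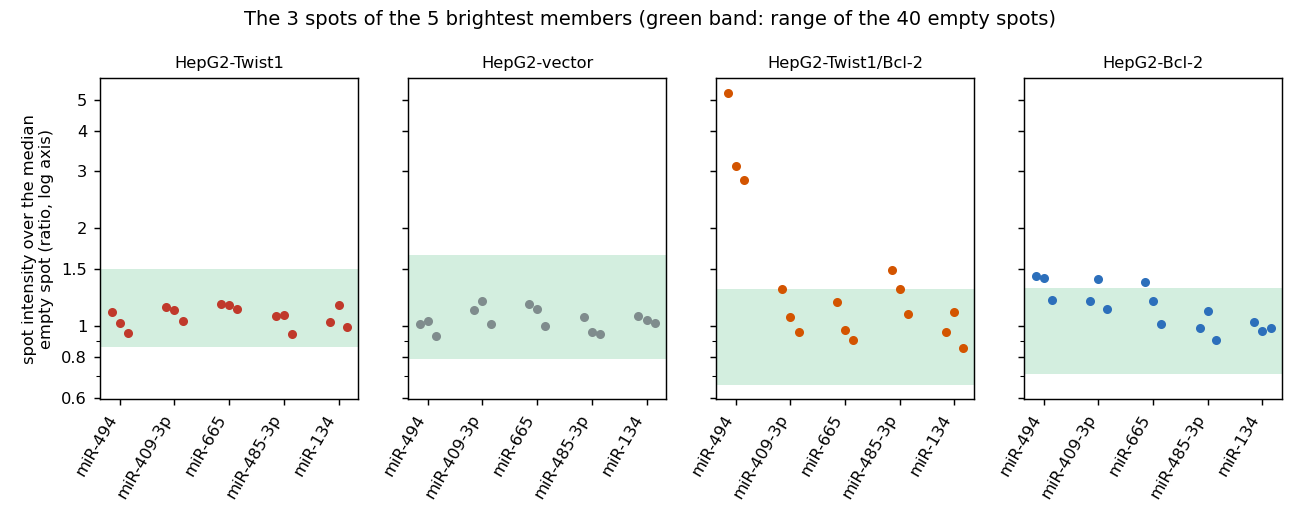
The 3 spots of the 5 named members in each line before correction, divided by the median empty spot of the channel (log axis), with the range of the 40 empty spots as a green band. All spots of array 1 lie in the band, and miR-494 is the single member with 2 or more spots above it on array 2.

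miR-485-3p, from a hairpin known for acting on synapse genes in rodent neurons, had levels of 20.1 in HepG2-Twist1 against 17.7 in HepG2-vector, and 65.4 in HepG2-Twist1/Bcl-2 against 39.3 in HepG2-Bcl-2. Its log2 ratio was 0.05 ± 0.10 on array 1 and 0.37 ± 0.20 on array 2, short of 2-fold on both. In HepG2-Twist1/Bcl-2 its spots read 236, 207 and 172, of which 1 was above the highest empty spot. miR-409-3p, described as a promoter of EMT in prostate cancer cells, was at 26.7 in HepG2-Twist1 against 25.3 in HepG2-vector, and 44.2 in HepG2-Twist1/Bcl-2 against 55.3 in HepG2-Bcl-2. The log2 ratios of miR-409-3p, 0.03 ± 0.05 on array 1 and -0.16 ± 0.28 on array 2, lay within the error of its spots. miR-134, which in rat neurons restrains LIMK1 and the growth of dendritic spines, was at 23.0 in HepG2-Twist1 against 21.2 in HepG2-vector, and 33.4 in HepG2-Twist1/Bcl-2 against 33.4 in HepG2-Bcl-2. Its ratios were 0.04 ± 0.12 on array 1 and 0.00 ± 0.17 on array 2. miR-665 was at 29.4 in HepG2-Twist1 against 24.0 in HepG2-vector, and 36.3 in HepG2-Twist1/Bcl-2 against 49.4 in HepG2-Bcl-2, with ratios of 0.10 ± 0.07 on array 1 and -0.20 ± 0.10 on array 2. None of these 4 had 2 spots above the highest empty spot in any line, which was a BKG0 spot in each channel. Each had spots above the highest spot named empty on array 2. Among them were those of miR-409-3p in HepG2-Bcl-2, at 61.96, 72.35 and 58.49 against 56.8. The lack of signal for these members thus depends on which empty spots set the cut.

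Over both arrays, the lines with Twist1 were compared with the lines without it in limma, with the array as a block and 1 residual degree of freedom. Of the 9 members at 32 in some line, 0 passed the adjusted threshold of 0.05 in limma and 0 passed it unadjusted. Over all 624 miRNAs tested in limma 0 (0%) had an adjusted p under that threshold and 7 an unadjusted one, and without the block the limma counts were 0 and 4. For miR-494 this fit gave a mean log2 ratio of 0.82 (limma, adjusted p = 0.989), which rests on array 2, since on array 1 the log2 ratio was 0.04 with both lines below 32. Since the dyes are opposite on the arrays, a dye effect shared by them is part of the residual, and a fit with 1 residual degree of freedom cannot show that the members did not differ.

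Bcl-2 was compared across the arrays after quantile normalization, so Bcl-2, array and dye cannot be told apart. For HepG2-Twist1/Bcl-2 over HepG2-Twist1, 1 member of 6 measured was called higher and 0 lower, where 6.61% of 454 measured miRNAs were called higher and 7.05% lower. This was again miR-494, at 281 in HepG2-Twist1/Bcl-2 against 22.8 in HepG2-Twist1, a log2 difference of 2.19 with the offset. Against the minimum of 32, its level in HepG2-Twist1/Bcl-2 was at least 8.79-fold higher on this quantile-normalized scale. The bound depends on the normalization, since the authors' value for HepG2-Twist1/Bcl-2 was 162. For HepG2-Bcl-2 over HepG2-vector, 0 of 6 measured members were called, where 2.68% of 485 miRNAs were called higher and 2.27% lower. There miR-494 was at 59.3 in HepG2-Bcl-2 and 20.9 in HepG2-vector, at least 1.85-fold higher against the minimum on the same scale. The authors' value for HepG2-Bcl-2 was 33.6, close to the minimum. The median log2 difference over all 52 members was -0.02 in both comparisons.

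Other lists were read for reference. The 10 asterisk probes of the members gave 0 at 32 in every line, and 7 probes of 14q32 miRNAs outside the member list gave 0 in HepG2-Twist1 against 0 in HepG2-vector, and 1 in HepG2-Twist1/Bcl-2 against 1 in HepG2-Bcl-2. Of the probes of 14q32 miRNAs outside the imprinted region, 3 of 4 were at 32 in every line. Among them miR-203, an epithelial miRNA, was at 188 in HepG2-Twist1 against 213 in HepG2-vector, and 326 in HepG2-Twist1/Bcl-2 against 344 in HepG2-Bcl-2. Of 44 probes of the imprinted chromosome 19 cluster, active in placenta, 3 reached 32 in HepG2-Twist1 against 3 in HepG2-vector, and 14 in HepG2-Twist1/Bcl-2 against 11 in HepG2-Bcl-2. Of the liver-enriched list, 3 of 4 reached 32 in every line, with miR-192 at 362 in HepG2-Twist1 against 352 in HepG2-vector, and 152 in HepG2-Twist1/Bcl-2 against 443 in HepG2-Bcl-2. The fourth, miR-122, the defining miRNA of hepatocytes, was at 17.2 in HepG2-Twist1 against 20.4 in HepG2-vector, and 24.0 in HepG2-Twist1/Bcl-2 against 30.3 in HepG2-Bcl-2, below 32 throughout. In the line order used for miR-122, probes at 32 numbered 1, 2, 2 and 3 of 5 for blood cells, 0, 0, 0 and 3 of 4 for muscle, 1, 1, 2 and 2 of 2 for neurons, and 1, 1, 0 and 0 of 11 for pluripotent cells.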

How the data were processed

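The authors hybridized labelled total RNA of the 4 lines to 2 two-colour arrays of LC Sciences and scanned them. Per the study's methods, background was subtracted, signals were normalized by cyclic LOWESS, and miRNAs below 32 in all samples were filtered out. The deposited scanner tables hold spot intensities, here without a background column, and the deposited value table holds the authors' normalized intensity per miRNA, which is neither logged nor centred and was used as an alternative. Spot intensities were corrected with normexp in limma 3.58.1 (R 4.3.3; offset 50), then loess was run array by array (span 0.3, 4 iterations, 332 control spots at weight 0). Levels are geometric means of 3 spots, and log2 ratios are means over them. Values carry the SD of the spots, which is technical, and p-values measure only the spread between these samples. Levels across arrays were quantile-normalized. Tables were made in Python 3.11.15 with pandas 2.3.3 and scipy 1.17.1.

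Named members were those at 100 or more in some line, at 32 or more in all lines, or called on an array, and the 5 with the highest mean log2 intensity. The members and lists were chosen with earlier results of these data known. The scripts were tested on simulated data. Alternatives were the authors' values, subtraction of the median empty spot, cyclic loess, centring, no normalization, other minimums, the median of the spots, leaving out each spot position, a cut at the highest empty spot, and asterisk names taken in. The median without miR-494 was added after seeing the data. No replicate numbers exist in the labels.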

Additional observations from a re-analysis of the deposited data

Results flagged for a closer look

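miR-665 had ratios of opposite sign on the 2 arrays, with all 3 spots of one sign on each. Its log2 ratio was 0.10 for HepG2-Twist1 over HepG2-vector and -0.20 for HepG2-Twist1/Bcl-2 over HepG2-Bcl-2. Whether the arrays differ here was not tested, and both ratios were short of 2-fold at the main setting. They were 1.77 and -1.39 after subtraction of the median empty spot, 0.11 and -0.19 with cyclic loess, 0.02 and 0.01 with centring in place of loess, -0.55 and 0.55 without normalization, and 0 and 0 in the authors' values.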

How the results depend on the processing

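In every alternative run, miR-494 was the called member of array 2 and 0 members were called on array 1, except that without normalization 2 members were called higher on array 2, miR-494 and miR-485-3p. The shares of members past the cut moved with the setting. In the order HepG2-Twist1, HepG2-vector, HepG2-Twist1/Bcl-2, then HepG2-Bcl-2, they were 67.3%, 71.2%, 71.2% and 69.2% at a minimum of 16. In HepG2-vector, HepG2-Twist1/Bcl-2, then HepG2-Bcl-2, they were 0%, 3.85% and 1.92% at 64, 0%, 1.92% and 0% at 100, 0%, 3.85% and 3.85% in the authors' values, 0%, 1.92% and 0% with the empty spot subtracted, 0%, 1.92% and 1.92% above the highest empty spot, and 51.9%, 55.8% and 1.92% without normalization. Cyclic loess gave 5.77% for HepG2-Twist1, 9.62% for HepG2-vector, 5.77% for HepG2-Twist1/Bcl-2 and 5.77% for HepG2-Bcl-2, so the lower shares of array 1 were not kept. With 1 spot position left out they ranged from 0% to 0%, 1.92% to 3.85%, 13.5% to 21.2% and 13.5% to 19.2% over the 4 lines.

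The median log2 ratio of the measured members on array 1 (1 member in the main setting) was -0.24 with centring, -0.56 without normalization and 0.014 at a minimum of 16, and -0.12 to -0.03 with 1 spot position left out. On array 2 it was 0.18 in the authors' values, 3.47 with the empty spot subtracted, 0.19 with cyclic loess, 0.55 without normalization, 0.99 at 64 and 1.60 at 100, where 1 to 4 members were measured except 29 without normalization. It was -0.01 to 0.04 with 1 spot position left out, and -0.05 without miR-494, which was tried after seeing the data. In limma 0 members passed in every setting, the replicate block of the array left out or kept, while miR-146a, not a member, gave a count of 1 without normalization, at 64 and at 100. With 1 spot position left out the counts stayed at 0 in limma, 0 on array 1 and 1 higher and 0 lower on array 2. Across arrays, the median difference for HepG2-Bcl-2 over HepG2-vector was -0.38 without normalization, 0.18 with centring and -0.36 with the empty spot subtracted (-0.08 to 0.04 with 1 spot position left out). For HepG2-Twist1/Bcl-2 over HepG2-Twist1 it was 0.11 without the quantile step, 0.57 without normalization and -1.02 with the empty spot subtracted (-0.10 to -0.02).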
